A study of Homo sapiens with 12 samples.

Results

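Cells take up amino acids through families of carrier proteins in the plasma membrane, and the genes described here encode 10 of them: SLC7A5, SLC7A6, SLC43A1, SLC7A1, SLC1A5, SLC1A4, SLC38A1, SLC38A2, SLC36A1 and SLC6A9. They were chosen as amino acid carriers other than the cystine importer, with earlier results of these data known. All 10 were found among the 28704 genes listed for either cell line and the 22730 listed for both. The further gene lists below were chosen in the same way, so their counts beside the shares of all genes are descriptions only. RNA-seq counts came from 12 libraries of human hepatoma cells in 4 groups of 3: cells labelled Hep-3B or Huh-7, each given a negative-control siRNA or an siRNA that targets ARD1 (siARD1). ARD1 is now called NAA10. Its product is the enzyme of the NatA complex, which adds acetyl groups to the N termini of new proteins. The series title ties ARD1 to glutathione synthesis and to escape from ferroptosis, an iron-dependent cell death. The time after transfection is not given in the sources used here, and the labels do not say whether the replicates were separate cultures, so each p-value measures only the spread between these libraries.

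Carriers of this kind work by different principles. Exchangers such as SLC7A5 bring in one amino acid while letting another out, and concentrative carriers such as SLC38A2 use the sodium gradient to fill the cell. Uptake of leucine, arginine and glutamine feeds protein synthesis and is sensed by mTORC1, the growth-promoting kinase complex at the lysosome. When amino acids run short or the endoplasmic reticulum is stressed, phosphorylation of the initiation factor eIF2 raises the activator ATF4, which is known to induce several of these genes. The adult liver takes up many amino acids through carriers that differ from those of rapidly dividing cells, in which SLC7A5 and SLC1A5 are typically abundant.

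The libraries held 17327615 to 25960237 counts each. NAA10 stood at 51.6, 62.2 and 62.5 CPM (counts scaled to library size and composition) in the controls labelled Hep-3B and at 11.5, 16.6 and 15.4 after siARD1. In Huh-7 it stood at 156, 147 and 192 CPM in the controls and at 12.3, 9.24 and 9.38 after siARD1, so the targeted mRNA was lower in all 6 siARD1 libraries than in any control of its line. Hep-3B is known to make alpha-fetoprotein and albumin, yet AFP ran from 0.277 to 2.09 CPM and ALB from 0.600 to 6.58 in the 6 libraries of that label, against 2981 to 5007 and 10012 to 12109 in Huh-7. The data therefore go against the Hep-3B label in these defining markers, and the name below stands for the label only. Other liver markers were present under that label. FOXA2 ran from 119 to 143 CPM there, against 98.8 to 129 in Huh-7. FGB (144 to 390 CPM), FGG (151 to 381), FGA (75.4 to 266) and HNF4A (45.1 to 51.5) were also present. All liver markers listed but FOXA2 were lower in the Hep-3B libraries than in Huh-7, down to TTR at 0 to 0.0926 CPM. Of 12 tested liver markers 8 were lower and 0 higher after siARD1 in these libraries (summed level 1090 to 1301 CPM in controls, 605 to 696 after siARD1), and in Huh-7 9 of 14 were lower and 0 higher. Of all tested genes 15.3% were lower in the Hep-3B libraries and 18.9% in Huh-7. In Huh-7 3 of 6 tested fibroblast markers fell (summed level 45.4 to 51.5 CPM in controls, 32.8 to 35.6 after siARD1), and in the Hep-3B libraries 1 of 5 rose, where 16.8% of all tested genes did. Of 5 leukocyte markers, CD3E (T cells) and MS4A1 (B cells) were at 0 or not listed in both lines. The 5 summed to 2.43 to 3.75 CPM in the Hep-3B controls and 10.4 to 11.5 in the Huh-7 controls. Fibroblast markers summed to 173 to 185 CPM in the Hep-3B controls, against 45.4 to 51.5 in the Huh-7 controls. Endothelial markers summed to 56.8 to 70.1 CPM against 12.5 to 13.6, and keratinocyte markers to 24.6 to 32.2 against 7.45 to 8.76. The endothelial marker KDR rose in the Hep-3B libraries from 40.7 to 57.1 CPM (edgeR adjusted p = 0.000922). PECAM1, also endothelial, fell there from 23.5 to 17.02 (edgeR adjusted p = 0.00538), and the keratinocyte marker TP63 from 15.9 to 10.02 (0.000367). In Huh-7, 0 of 1 tested endothelial and 0 of 2 tested keratinocyte markers passed. The part of these shifts in the transporter values was not tested.

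Most of the 10 transporter mRNAs rose after siARD1 in both lines. In the libraries labelled Hep-3B, 7 of the 10 genes passed the test as higher and 0 as lower, where 32.2% of all 15762 tested genes passed, 16.8% higher and 15.3% lower. That count of 7 was 3, 1 and 2 without siARD1 library 1, 2 and 3, 2 with upper-quartile scaling and 3 with all 12 libraries in 1 fit. In Huh-7, 9 passed as higher and 1, SLC36A1, as lower, where 40.1% of 15919 tested genes passed, 21.2% higher and 18.9% lower. Higher in both lines were 6 (SLC7A5, SLC7A1, SLC1A5, SLC38A1, SLC38A2 and SLC43A1), against 4.55% of the 13800 genes tested in both, a count that rests on the same Hep-3B calls. All 3 siARD1 libraries lay above all 3 controls for 8 genes in Hep-3B and 9 in Huh-7, against 22.6% and 24.3% of tested genes. They lay below for 0 and 1, against 22.4% and 25.4%. Because the 10 genes were chosen with earlier results of these data known, these counts describe the set and are no independent test. All 10 passed the filter on low counts in both lines. The median log2 fold change of the 10 was 0.33 in the Hep-3B libraries and 0.70 in Huh-7, and over all tested genes it was -0.01 in each. Control 1 of Hep-3B lay low for most of the 10. Without it the Hep-3B values ran from 0.035 (SLC6A9) to 0.47 (SLC36A1), against 0.08 to 0.53 with all libraries. Being bulk measurements, these values do not tell a smaller number of cells of one kind from less RNA per cell. A call is an adjusted p (Benjamini and Hochberg, over all tested genes) under 0.05 in edgeR's quasi-likelihood test.

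**Figure D1:**
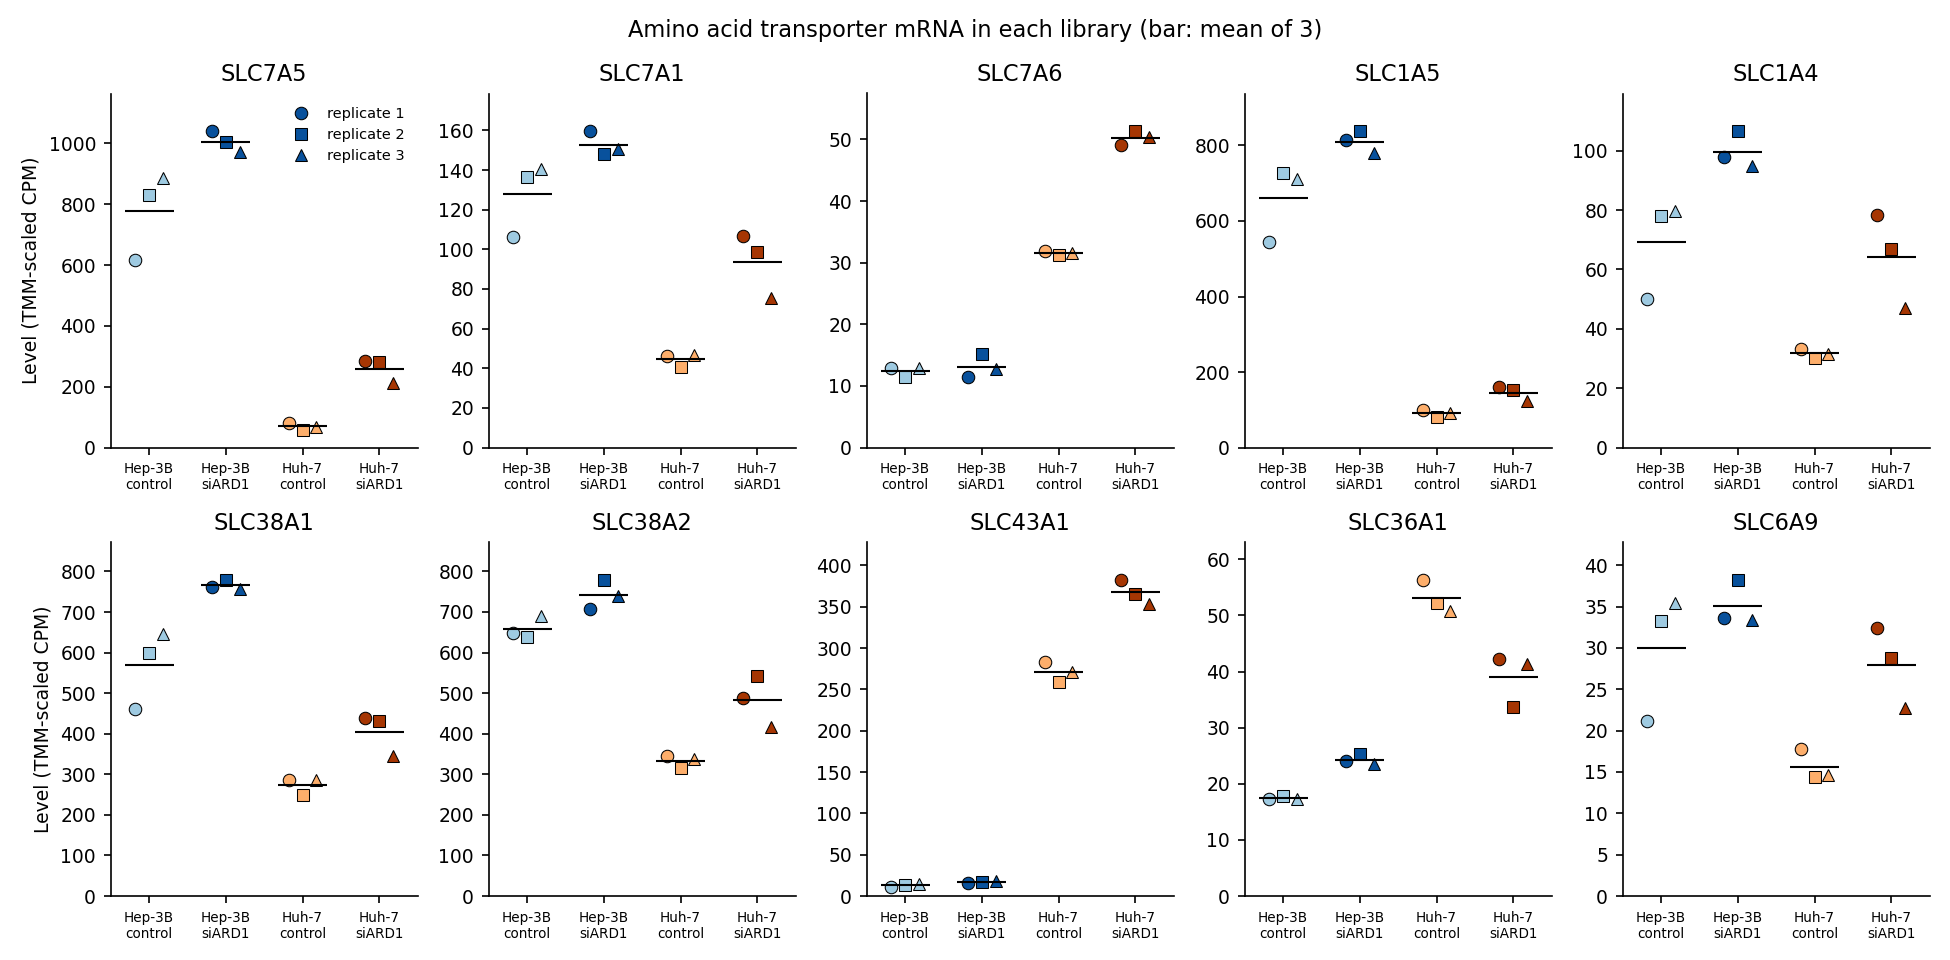
Level of each of the 10 transporter mRNAs in every library, in TMM-scaled CPM on linear axes that start at 0. Points are libraries (shape gives the replicate number), and bars are means of 3. SLC7A5 lies at 59.2 to 81.7 CPM in the Huh-7 controls and at 211 to 286 after siARD1, and SLC36A1 moves down in Huh-7 and up in Hep-3B.

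The 10 genes have 16 annotated starts in the RefSeq promoter table (GRCh38.p14), each with a window of 250 bases before and 50 after the start. Both strands of each window were searched for TGATGNAA, the core of the amino acid response element that ATF4 and its partners are known to bind, and for CACGTG, the E-box read by MYC and by the lysosomal regulator TFEB. The first was found in 4 of the 16 windows, belonging to 4 genes, and in 3.62% of all 35116 windows in the table. The second was found in 4 windows, also of 4 genes, and in 7.26% of all windows. A match is a run of letters and not a measured binding site. The matches of the first motif are shown, as the one tied to ATF4, with the motif in capitals, 5′ to 3′ on the gene's strand:
SLC7A1: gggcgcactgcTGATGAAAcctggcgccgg
SLC38A1: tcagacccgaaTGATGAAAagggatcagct
SLC1A4: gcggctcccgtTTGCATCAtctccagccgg
SLC1A5: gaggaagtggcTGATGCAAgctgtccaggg
The SLC7A1 run lies at chr13:29595663-29595692 (minus strand), its motif starting at base 8 counted from 1 at the start site, inside the first exon. The SLC38A1 run is at chr12:46266502-46266531 (minus strand) with the motif at -4. The SLC1A4 run is at chr2:64989381-64989410 (plus strand) at the second of its starts, with the motif at -7 and read on the opposite strand. The SLC1A5 run is at chr19:46784893-46784922 (minus strand), with the motif at -97 from the third and most downstream start.

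CACGTG was found in the windows of SLC7A5, SLC43A1, SLC36A1 and SLC1A5. SLC36A1, the gene whose response differed in direction between the lines, held it at 2 places in the window of its second start, as 0.664% of all windows did. The runs of SLC36A1 and of SLC7A5, the gene with the largest rise in Huh-7, were:
SLC36A1, first: cgctcaagggagCACGTGacctcggcctct
SLC36A1, second: gggcggtgggatCACGTGatgaggtccgga
SLC7A5: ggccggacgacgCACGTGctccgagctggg
They lie at chr5:151447548-151447577 and chr5:151447583-151447612 (plus strand, motif at -43 and -8) and at chr16:87869620-87869649 (minus strand, motif at -130). No window of SLC38A2, SLC7A6 or SLC6A9 held either motif, which says only that these letters are not in those windows.

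Among the carriers of leucine, SLC7A5 had the largest rise in Huh-7. SLC7A5 (ENSG00000103257, GRCh38 chromosome 16, 87830023 to 87869488) encodes LAT1, the exchanger of leucine, phenylalanine and other large neutral amino acids. It stood at 81.7, 59.2 and 67.4 CPM in the Huh-7 controls and at 286, 280.2 and 211 after siARD1. The groups did not overlap, and the lowest siARD1 library held well over the highest control. The log2 fold change was 1.92 (SE 0.19, edgeR adjusted p = 0.00116), or 3.79-fold. The Hep-3B libraries stood at 615, 831 and 887 CPM in the controls and at 1039, 1004 and 973 after siARD1, again without overlap, though control 1 lay well under the other controls. There the log2 fold change was 0.37 (SE 0.12, edgeR adjusted p = 0.0473), and 0.23 without control 1 (0.00380). That call was lost without siARD1 library 1 (edgeR adjusted p = 0.119), 2 (0.191) or 3 (0.123). It was also lost with upper-quartile scaling (0.0577), with a replicate block (0.105) and with all 12 libraries in 1 fit (0.131).

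SLC7A6 (ENSG00000103064, chromosome 16, 68264516 to 68301823) encodes y+LAT2, which exchanges cationic for neutral amino acids. It rose in Huh-7 from 31.96, 31.2 and 31.6 CPM to 49.2, 51.3 and 50.4, a log2 rise of 0.69 (SE 0.07, edgeR adjusted p = 4.18e-08). Replicates of each group lay within a few percent of each other there. The Hep-3B controls held 12.97, 11.5 and 12.9 CPM and their siARD1 libraries 11.4, 15.2 and 12.7, so the groups overlapped. The log2 value was 0.08 (SE 0.13, edgeR adjusted p = 0.683) and -0.044 without siARD1 library 2. SLC7A6OS, a gene on the opposite strand, overlaps SLC7A6 and held 54.9% as many counts in the Hep-3B libraries and 21.2% in Huh-7. The library kit keeps strand, but whether the counting used it is not given in the sources used here.

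SLC43A1 (ENSG00000149150, chromosome 11, 57484534 to 57515786) encodes LAT3, a facilitative carrier of branched-chain amino acids that works without a heavy chain. Per kilobase of annotated exon it was the most abundant of the 10 in Huh-7. It stood there at 284, 258 and 271 CPM in the controls and at 382, 366 and 354 after siARD1. The log2 fold change was 0.46 (SE 0.05, edgeR adjusted p = 8.00e-07), with no overlap. The Hep-3B libraries held little, 10.4, 13.7 and 15.1 CPM in the controls and 15.4, 16.7 and 18.6 after siARD1, where the highest control and the lowest siARD1 library nearly touched. The log2 value of 0.38 (SE 0.13, edgeR adjusted p = 0.0388) was 0.23 without control 1 (0.159), and it lost its call there and without control 2 (0.0645), siARD1 library 2 (0.0638) or 3 (0.152), and with upper-quartile scaling (0.0590).

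SLC3A2 encodes 4F2hc, the heavy chain that carries SLC7A5, SLC7A6 and the cystine importer SLC7A11 to the membrane, and it was read beside its partners. It rose in the Hep-3B libraries from 286, 350.1 and 361 CPM to 441, 419 and 441 (log2 fold change 0.39, SE 0.08, edgeR adjusted p = 0.00122). In Huh-7 it rose from 147, 131 and 141 CPM to 359, 339.6 and 278 (1.24, SE 0.08, edgeR adjusted p = 1.70e-07). Exon length here and elsewhere is that of all annotated exons of a gene joined, not of the transcripts made. Ratios, shares and orders of different genes depend on it, and the SD does not cover that. Per kilobase of exon, SLC7A5 mRNA was 2.54 ± 0.173 times that of SLC3A2 (SD, n = 3) in the Hep-3B controls and 2.53 ± 0.108 times after siARD1. In Huh-7 the ratio was 0.541 ± 0.0594 in the controls and 0.865 ± 0.0368 after siARD1, the libraries of the groups not overlapping. SLC7A11 itself had log2 values of 0.75 (edgeR adjusted p = 3.49e-05) in the Hep-3B libraries and 0.88 (0.0624) in Huh-7. SLC3A1, the other heavy chain of this type, did not pass the filter on low counts.

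Summed per kilobase over SLC7A5, SLC7A6 and SLC43A1, the makeup of the mRNA of these 3 leucine carriers set the lines apart. SLC7A5 made up 96.8 ± 0.251% of the sum (SD, n = 3) in the Hep-3B controls and 97.0 ± 0.347% after siARD1. In the Huh-7 controls it made up 15.3 ± 1.54%, and SLC43A1 80.4 ± 1.32%. After siARD1 the SLC7A5 share in Huh-7 was 32.9 ± 3.04% and that of SLC43A1 63.1 ± 2.74%, with no overlap with the controls for either. The sum itself was 95.5 ± 5.999 CPM per kilobase in the Huh-7 controls and 165 ± 12.4 after siARD1. In the Hep-3B libraries it was 169 ± 30.9 in the controls and 218 ± 6.42 after siARD1. Other leucine carriers, such as SLC7A8 and SLC43A2, are not in this sum.

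**Figure D2:**
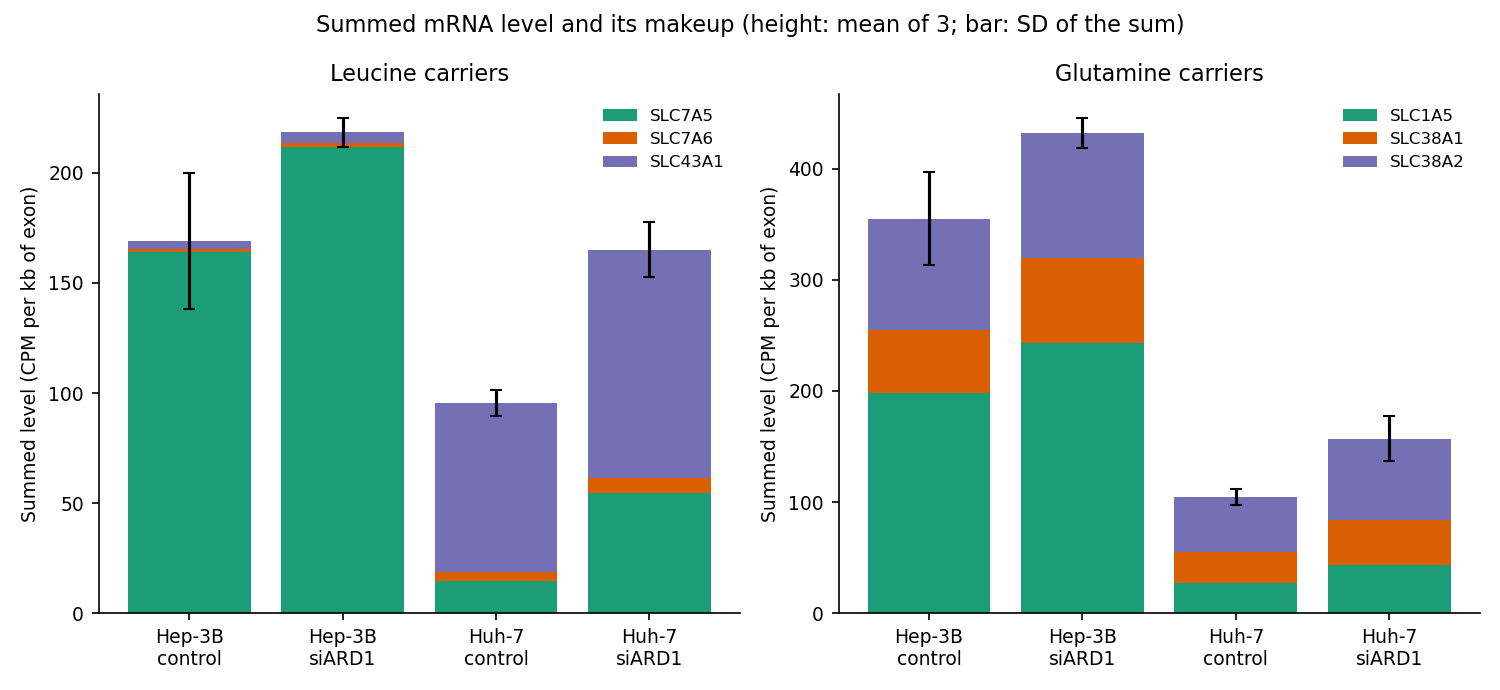
Stacked mean levels, in CPM per kilobase of exon, of 3 leucine carriers (left) and 3 glutamine carriers (right) in the 4 groups. Bar height is the mean of 3 libraries and the black bar is the SD of the sum. SLC7A5 fills 96.8% of the left stack in the Hep-3B controls and 15.3% in the Huh-7 controls, where SLC43A1 fills 80.4%.

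SLC7A1 (ENSG00000139514, chromosome 13, 29509410 to 29595688) encodes CAT1, the main carrier of arginine and lysine in most cells outside the adult liver. In Huh-7 it rose from 46.1, 40.7 and 46.5 CPM to 107, 98.7 and 75.5, with no overlap. The log2 fold change was 1.09 (SE 0.12, edgeR adjusted p = 0.000138). The Hep-3B libraries stood at 106, 137 and 141 CPM in the controls and at 159, 148 and 151 after siARD1, with control 1 the low one. The log2 value of 0.26 (SE 0.09, edgeR adjusted p = 0.0411) was 0.14 without control 1 (0.0893), and the call was also lost without siARD1 library 1 (0.139), 2 (0.0788) or 3 (0.0877), with upper-quartile scaling (0.0683) and with all 12 libraries in 1 fit (0.147).

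SLC1A5, SLC1A4, SLC38A1 and SLC38A2, sodium-dependent carriers of neutral amino acids, rose in Huh-7. SLC1A5 (ENSG00000105281, chromosome 19, 46774883 to 46788594) encodes ASCT2, a sodium-dependent exchanger known for glutamine uptake in tumour cells. In Huh-7 it rose from 101, 80.5 and 90.8 CPM to 160.5, 153 and 123 (log2 fold change 0.70, SE 0.12, edgeR adjusted p = 0.00210). The Hep-3B libraries stood at 543, 728 and 712 CPM in the controls and at 814, 837 and 779.7 after siARD1 (0.29, SE 0.09, edgeR adjusted p = 0.0337). Neither line showed overlap, and in the Hep-3B libraries control 1 was again the lowest. Without it the log2 value was 0.17 (edgeR adjusted p = 0.0225). The Hep-3B call was lost without siARD1 library 1 (0.0820), 2 (0.156) or 3 (0.0670), with upper-quartile scaling (0.0581) and with all 12 libraries in 1 fit (0.101).

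SLC1A4 (ENSG00000115902, chromosome 2, 64988477 to 65023865) encodes ASCT1, the close relative that carries alanine, serine, cysteine and threonine. In Huh-7 the controls held 33.2, 30.3 and 31.7 CPM and the siARD1 libraries 78.3, 67.0 and 47.0. The siARD1 libraries thus spread widely but stayed above every control, a log2 rise of 1.04 (SE 0.20, edgeR adjusted p = 0.0102). The call was lost without control 1 (0.0530) or control 2 (0.0605). The Hep-3B controls held 50.1, 77.9 and 79.6 CPM and the siARD1 libraries 97.7, 106 and 94.9, also apart. Their log2 value of 0.53 (SE 0.17) missed the threshold (edgeR adjusted p = 0.0567). It passed under 8 of the 14 alternatives, among them without control 1 (0.34, edgeR adjusted p = 0.000871), without control 2 (0.0330) and without control 3 (0.0331).

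SLC38A1 and SLC38A2 lie side by side on chromosome 12 and encode SNAT1 and SNAT2, sodium-coupled carriers of glutamine and alanine. SLC38A1 (ENSG00000111371, 46183063 to 46270017) rose in the Hep-3B libraries from 461, 599.6 and 645 CPM to 762, 779 and 758 (log2 fold change 0.43, SE 0.10, edgeR adjusted p = 0.00960). In Huh-7 it rose from 286, 250.3 and 287 CPM to 438, 430.3 and 345 (0.58, SE 0.09, edgeR adjusted p = 0.000226). No siARD1 library overlapped a control in either line. The Hep-3B call was lost without siARD1 library 2 (0.0754).

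SLC38A2 (ENSG00000134294, 46358189 to 46372867) is known as a carrier whose mRNA is induced when amino acids are withdrawn. In Huh-7 it rose from 344, 315 and 337 CPM to 489, 542 and 417 (log2 fold change 0.56, SE 0.08, edgeR adjusted p = 5.80e-05). In the Hep-3B libraries it stood at 649, 639 and 690.2 CPM in the controls and at 707, 779 and 739 after siARD1, apart by a narrow margin. The log2 fold change there was 0.17 (SE 0.06, edgeR adjusted p = 0.0322). It lost its call without control 2 (0.125) or siARD1 library 1 (0.0531), 2 (0.0969) or 3 (0.0649), with upper-quartile scaling (0.0761) and with all 12 libraries in 1 fit (0.0694).

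The balance among 3 of the glutamine carriers differed between the lines. Per kilobase of exon, SLC1A5 made up 55.7 ± 2.60% of the sum of SLC1A5, SLC38A1 and SLC38A2 (SD, n = 3) in the Hep-3B controls and 56.3 ± 0.825% after siARD1. In Huh-7, SLC38A2 was the largest share, 48.0 ± 1.16% in the controls and 46.5 ± 1.74% after siARD1. The sum was 355 ± 41.5 CPM per kilobase in the Hep-3B controls and 432 ± 13.3 after siARD1, and 105 ± 7.26 and 157 ± 19.9 in Huh-7. Other glutamine carriers, such as SLC38A3 and SLC38A5, are not in this sum. SLC38A3 fell in Huh-7 from 125 to 84.1 CPM (log2 fold change -0.56, edgeR adjusted p = 0.00494). SLC38A5 fell in the Hep-3B libraries from 84.6 to 71.0 CPM (-0.25, edgeR adjusted p = 0.0143).

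SLC36A1 was the one gene of the 10 that fell in either line. SLC36A1 (ENSG00000123643, chromosome 5, 151437046 to 151492381) encodes PAT1, a proton-coupled carrier of small neutral amino acids found at the plasma membrane and the lysosome. In Huh-7 it fell from 56.3, 52.1 and 50.8 CPM to 42.2, 33.7 and 41.4, a log2 value of -0.42 (SE 0.08, edgeR adjusted p = 0.000215). In the Hep-3B libraries it rose from 17.3, 17.8 and 17.3 CPM to 24.0, 25.3 and 23.5 (0.48, SE 0.09, edgeR adjusted p = 0.000898). The groups stood apart in each line, in opposite order. It was called in both lines under all 14 alternatives run for each, with log2 values of 0.44 to 0.51 in the Hep-3B libraries and -0.49 to -0.32 in Huh-7.

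SLC6A9 (ENSG00000196517, chromosome 1, 43991500 to 44031467) encodes GLYT1, a sodium- and chloride-dependent glycine carrier. In Huh-7 it rose from 17.8, 14.4 and 14.6 CPM to 32.3, 28.8 and 22.7 (log2 fold change 0.86, SE 0.12, edgeR adjusted p = 3.76e-05), with no overlap. The Hep-3B controls held 21.1, 33.2 and 35.4 CPM and the siARD1 libraries 33.7, 38.2 and 33.4. The groups overlapped there, control 1 being far under the rest, and the log2 value of 0.24 (SE 0.17) did not pass (edgeR adjusted p = 0.332). It was 0.035 without control 1. Of 14 alternatives only the fit with no filter on low counts called it (edgeR adjusted p = 0.0495). CCDC24, on the opposite strand, overlaps SLC6A9 and held 12.5% as many counts in the Hep-3B libraries and 24.5% in Huh-7.

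**Figure D3:**
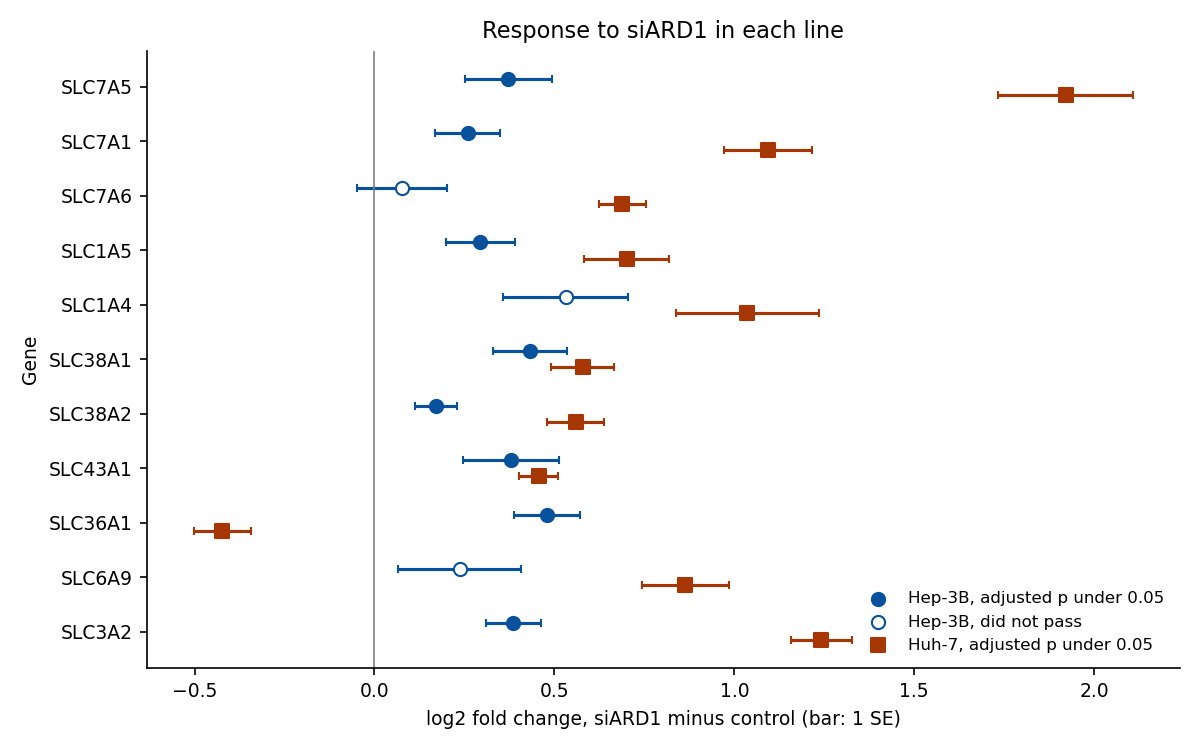
Log2 fold change (siARD1 minus control) of the 10 transporter genes and of the heavy chain gene SLC3A2 in each line, with 1 SE from edgeR. Filled symbols passed an adjusted p of 0.05 and open ones did not. The Huh-7 values run from -0.42 (SLC36A1) to 1.92 (SLC7A5) and the Hep-3B values from 0.08 to 0.53.

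Without siARD1 the lines differed in the level of every one of the 10 genes. In the controls 7 were lower in Huh-7 than in the Hep-3B libraries and 3 higher, where 80.7% of 17122 tested genes differed in either direction, so a difference as such is near the background. By size, 8 of the 10 differed at least 2-fold, against 47.2% of all tested genes. SLC7A5 was 11.2-fold higher in the Hep-3B controls (log2 difference, Huh-7 minus Hep-3B, -3.49, SE 0.19, edgeR adjusted p = 6.83e-08) and SLC1A5 7.30-fold higher (-2.87, SE 0.14, edgeR adjusted p = 1.34e-09). SLC7A1 (-1.52), SLC1A4 (-1.12), SLC38A1 (-1.05), SLC38A2 (-0.99) and SLC6A9 (-0.94) were lower in Huh-7 by smaller amounts. SLC43A1 was 20.8-fold higher in Huh-7 (4.38, SE 0.09, edgeR adjusted p = 1.78e-23), SLC36A1 higher by 1.61 and SLC7A6 by 1.34 on the log2 scale. Over all 20 alternatives each of these differences kept its direction and its call.

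Levels of different genes were set side by side per kilobase of exon, an order that depends on the joined length of all annotated exons. In the Hep-3B controls the order was SLC1A5 (198 ± 30.7 CPM per kilobase, SD, n = 3), SLC7A5 (164 ± 30.3), SLC38A2 (99.9 ± 4.12), SLC38A1 (56.8 ± 9.56), SLC7A1 (16.6 ± 2.45), SLC1A4 (9.97 ± 2.39), SLC6A9 (5.80 ± 1.49), SLC43A1 (3.71 ± 0.685), SLC36A1 (2.50 ± 0.0419) and SLC7A6 (1.64 ± 0.110). The ranges of SLC1A5 and SLC7A5 overlapped, as did those of SLC6A9 and SLC43A1, and other neighbours lay apart. In the Huh-7 controls the order was SLC43A1 (76.7 ± 3.57), SLC38A2 (50.3 ± 2.30), SLC38A1 (27.4 ± 2.09), SLC1A5 (27.2 ± 3.04), SLC7A5 (14.6 ± 2.40), SLC36A1 (7.61 ± 0.412), SLC7A1 (5.78 ± 0.420), SLC1A4 (4.57 ± 0.210), SLC7A6 (4.16 ± 0.0493) and SLC6A9 (3.03 ± 0.369). Here the ranges of SLC38A1 and SLC1A5 overlapped and other neighbours lay apart. After siARD1 the order in the Hep-3B libraries was the same as in their controls. In Huh-7 SLC7A5 moved from the fifth place to the third (54.6 ± 8.78), its range overlapping that of SLC1A5, and SLC36A1 from the sixth to the ninth (5.60 ± 0.672), overlapping SLC6A9.

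**Figure D4:**
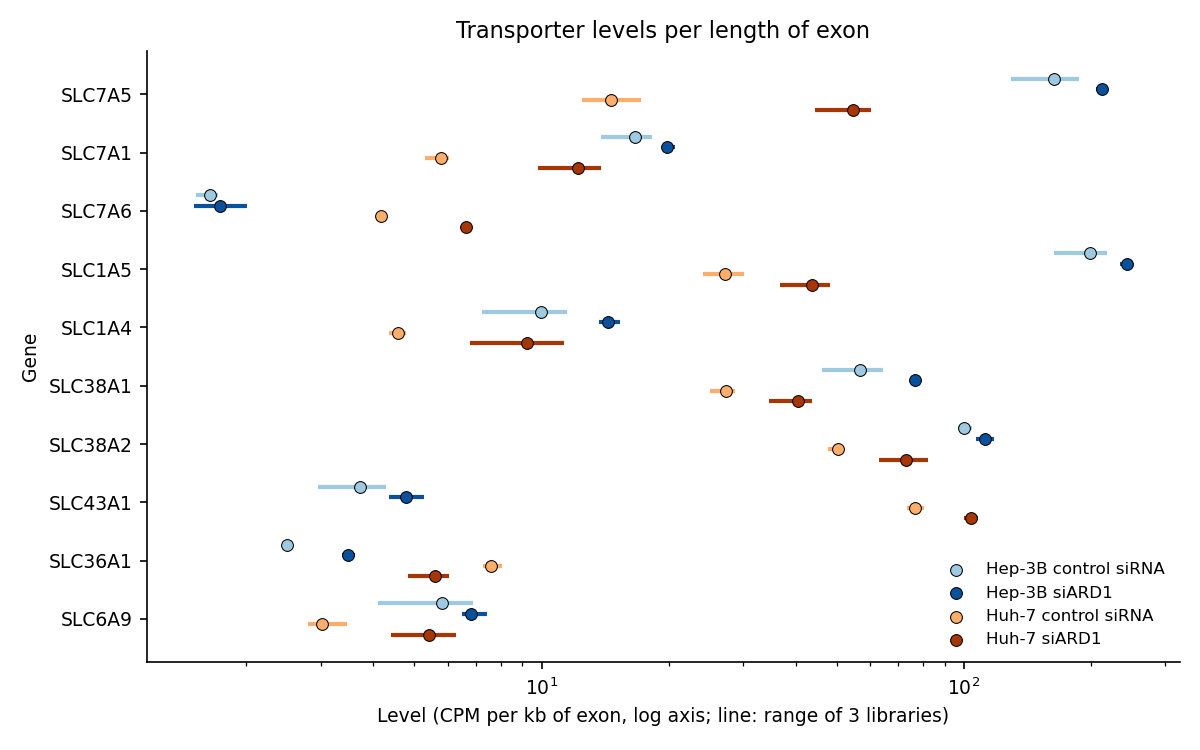
Level of each transporter per kilobase of exon in the 4 groups, on a log axis. Points are means of 3 libraries and lines run from the lowest to the highest library. SLC7A5 and SLC1A5 lead in the Hep-3B controls (164 and 198 CPM per kilobase), and SLC43A1 leads in Huh-7 (76.7).

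The response to siARD1 differed between the lines for 5 of the 10 genes by the test of the difference itself, where 31.4% of 17122 tested genes passed. In 4 the value was higher in Huh-7 and in 1 lower, against 15.2% and 16.2% of tested genes. The difference, Huh-7 minus Hep-3B, was 1.53 for SLC7A5 (SE 0.24, edgeR adjusted p = 0.00129), 0.82 for SLC7A1 (0.00491), 0.60 for SLC7A6 (0.00102), 0.37 for SLC38A2 (0.00572) and -0.92 for SLC36A1 (1.98e-06). For SLC1A5 (0.39, edgeR adjusted p = 0.132), SLC1A4 (0.49, 0.267), SLC6A9 (0.61, 0.103), SLC38A1 (0.13, 0.608) and SLC43A1 (0.05, 0.791) it did not pass, which does not show that the responses were alike. SLC3A2 differed by 0.84 (edgeR adjusted p = 5.94e-05). NAA10 itself was left at 24.9% of its control level in the Hep-3B libraries and at 6.34% in Huh-7, so the depth of knockdown and the cell line cannot be told apart in this comparison.

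Several of the gaps between the lines were narrower in the siARD1 libraries, given here as ratios of mean CPM. A change in such a ratio restates the difference in response tested above and is no separate result. That test did not pass for SLC6A9 (edgeR adjusted p = 0.103) or SLC43A1 (0.791). For SLC7A5 the Hep-3B libraries held 11.2 times the Huh-7 level in the controls and 3.88 times after siARD1. For SLC7A1 the ratio was 2.87 and then 1.63, for SLC6A9 1.92 and 1.26, and for SLC3A2 2.38 and 1.33. SLC36A1, higher in Huh-7, went from 3.04 times the Hep-3B level to 1.61 times. SLC7A6 went the other way, from 2.54 times to 3.84 times, and SLC43A1 stayed near its starting ratio, 20.7 and 21.7.

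Within a group the transporters tended to shift as a block from library to library. In Hep-3B control 1, 9 of the 10 genes lay under their group mean, with a median deviation of -0.28 on the log2 scale, while the median over all tested genes was 0.01. SLC6A9 (-0.46) and SLC1A4 (-0.43) lay lowest there, SLC7A6 lay at 0.06, and SLC36A1 at -0.01. The medians of the Hep-3B siARD1 libraries were -0.02, 0.05 and -0.04. Among the Huh-7 controls, all 10 genes lay over the group mean in library 1 (median 0.07). All 10 lay under it in library 2 (median -0.09). In Huh-7 siARD1 library 3, 8 of the 10 lay under the group mean (median -0.23, all genes 0.01), with SLC1A4 at -0.41 and SLC36A1 at 0.09. Of 7 other genes of the amino acid response, all lay under the group mean in that Huh-7 library: CHAC1 (-0.45), ASNS (-0.34), PSAT1 (-0.33), TRIB3 (-0.30), SESN2 (-0.20), ATF4 (-0.17) and DDIT3 (-0.02). In Hep-3B control 1 they were split, with PSAT1 (-0.37), TRIB3 (-0.36), DDIT3 (-0.17) and ASNS (-0.09) under it and CHAC1 (0.15), ATF4 (0.06) and SESN2 (0.06) over it. Without control 1 the Hep-3B libraries gave 6 genes called higher, against 3, 1 and 2 without their siARD1 library 1, 2 and 3, and without siARD1 library 3 Huh-7 gave 9 higher and 1 lower. A cause for these shifts was not tested.

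**Figure D5:**
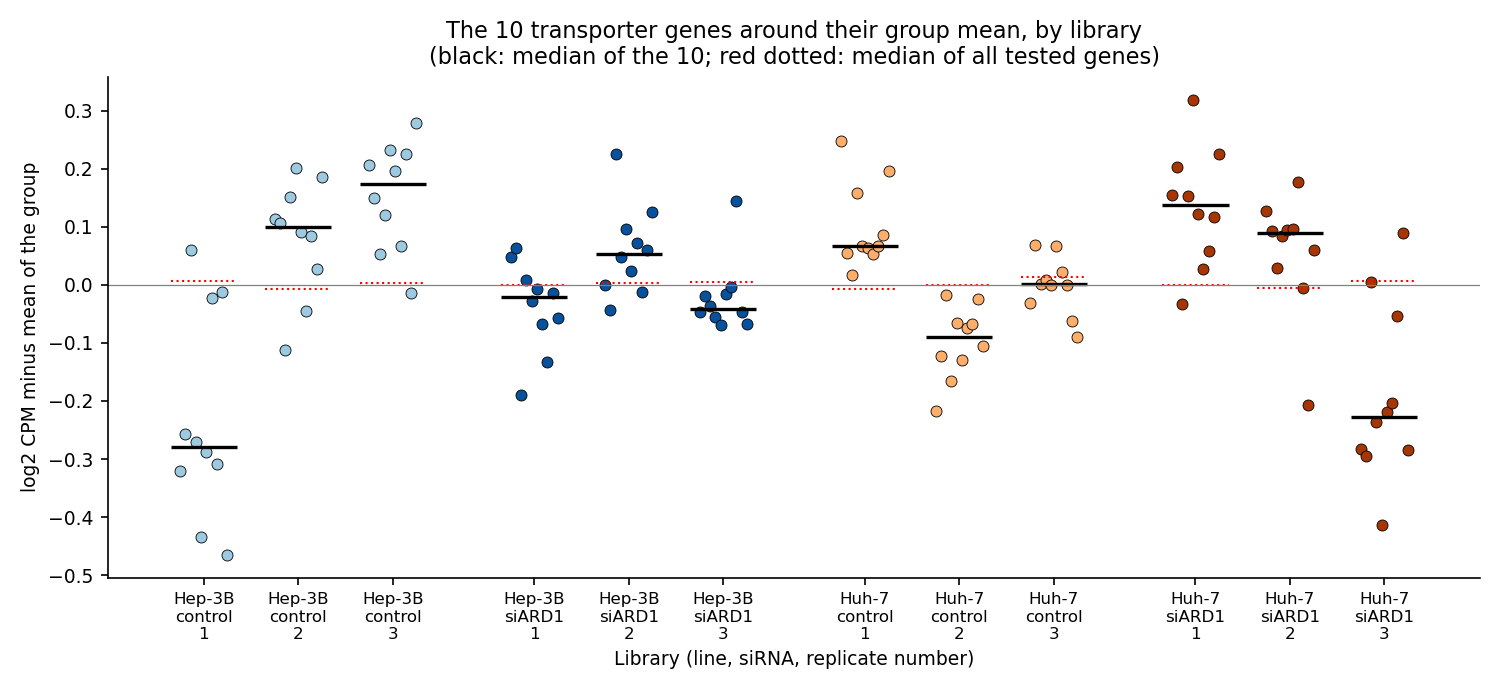
Log2 CPM of each of the 10 transporter genes minus the mean of its group, by library. Black bars are the median of the 10 and red dotted bars the median of all tested genes, which stays near 0. Control 1 of Hep-3B (median -0.28) and siARD1 library 3 of Huh-7 (median -0.23) lie under the others of their groups.

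For SLC7A5, SLC7A1, SLC1A5 and SLC38A2 the 3 genes of most similar pattern were listed, and 5 of the 12 entries were SLC3A2 or another of the 10 genes, none of them for SLC38A2. Likeness was Pearson's r over the 12 libraries after centring log2 CPM on the mean of each line, among 9765 genes, and it includes the shared contrast between siARD1 and control. SLC3A2 was nearest both to SLC7A5 (r = 0.990) and to SLC7A1 (r = 0.990). SLC7A5 was next for SLC7A1 (0.985). For SLC1A5 the nearest were the growth factor signalling inhibitor gene SPRY4 (0.990), SLC1A4 (0.980) and SLC6A9 (0.974). For SLC38A2 they were PHLDA1 (0.974), the cell cycle inhibitor gene CDKN2B (0.973) and the microtubule gene CAMSAP2 (0.966). KLF4 (0.987) and SEL1L3 (0.986) followed SLC3A2 for SLC7A5, and GDF15 (0.980), a stress-induced secreted factor, followed for SLC7A1.

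Of 40 further amino acid carriers, 21 were tested in the Hep-3B libraries, 4 of them higher and 4 lower (median log2 fold change 0.15), against 16.8% and 15.3% of all tested genes. In Huh-7 24 were tested, 7 of them higher and 9 lower (median -0.05), against 21.2% and 18.9%. Among the called genes of the Hep-3B libraries SLC7A2, an inducible arginine carrier, rose from 46.4 to 77.9 CPM (0.75), the creatine carrier gene SLC6A8 fell from 593 to 435 (-0.45) and the taurine carrier gene SLC6A6 from 1195 to 966 (-0.30). In Huh-7 the lysosomal carrier genes SLC66A1 (0.88) and SLC38A7 (0.78) rose, and SLC16A10, a facilitative carrier of aromatic amino acids, fell (-0.58). SLC7A2 fell in Huh-7 (-0.29), and the difference between the lines passed for it (-1.05, edgeR adjusted p = 1.59e-07).

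Of 16 genes that encode the kinases of eIF2, its alpha subunit, ATF4, factors that act with or under it, MYC and the ubiquitin ligase NEDD4L, 12 were higher and 1 lower in Huh-7 (median 0.47), against 21.2% and 18.9% of all tested genes. Of the 4 kinase genes, EIF2AK1 fell there (-0.14, edgeR adjusted p = 0.0343), and EIF2AK2, EIF2AK3 and EIF2AK4 did not pass (edgeR adjusted p = 0.321, 0.0903 and 0.692). The transcription factor genes ATF5 (5.66 to 18.4 CPM, log2 fold change 1.72), ATF3 (1.02) and DDIT3 (0.95) had the smallest p. ATF4 itself rose in Huh-7 (0.48, edgeR adjusted p = 9.39e-06) and did not pass in the Hep-3B libraries (-0.13, 0.0896). ASNS and PSAT1, response genes outside these 16, did not pass in Huh-7. ASNS went there from 4.597 to 5.288 CPM (0.24, edgeR adjusted p = 0.379), and PSAT1 moved by 0.53 (0.0588). ASNS (0.66, edgeR adjusted p = 2.25e-05) and PSAT1 (0.602, 0.0216) rose in the Hep-3B libraries. In the Hep-3B libraries 2 of 16 were higher and 2 lower (median 0.02), against 16.8% and 15.3% of all tested genes. EIF2AK2, the kinase PKR, rose (0.39), and EIF2AK1, the heme-regulated kinase, fell (-0.35). MYC, whose product is known to bind the E-box, fell in the Hep-3B libraries from 283 to 195 CPM (-0.53) and rose in Huh-7 (1.59), with a difference between lines of 2.11 (edgeR adjusted p = 2.17e-07).

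Of 40 genes of amino acid sensing by mTORC1, 17 of 39 tested were higher and 5 lower in Huh-7 (median 0.19), where 21.2% and 18.9% of all tested genes were. In the Hep-3B libraries 9 of 40 were higher and 9 lower (median -0.04), where 16.8% and 15.3% were. RPTOR, which encodes the scaffold of the complex, rose in Huh-7 from 39.0 to 62.4 CPM (0.70) and SEH1L of the GATOR2 complex from 66.0 to 91.1 (0.48), while SESN3, a sestrin gene, fell from 93.4 to 47.2 (-0.97). RHEB, the activating GTPase, rose in the Hep-3B libraries by 0.45 and the Rag GTPase gene RRAGD by 0.41, and TSC2, which encodes the inhibitor of RHEB, fell by 0.48 on the log2 scale. SESN3 rose in those libraries from 0.577 to 1.34 CPM (1.24), a level under the 5 CPM set for naming genes, and the test of the difference gave -2.24 (edgeR adjusted p = 3.48e-07).

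Of 30 enzymes that consume or make amino acids, 10 were higher and 7 lower of 25 tested in the Hep-3B libraries (median 0.09), where 16.8% and 15.3% of all tested genes were. In Huh-7 5 were higher and 8 lower of 28 (median 0.04), where 21.2% and 18.9% were. BCAT1, the cytosolic aminotransferase of branched-chain amino acids, rose in the Hep-3B libraries from 77.8 to 154 CPM (0.99) and the glycine cleavage gene GCSH from 7.20 to 14.9 (1.04), while GCSH fell in Huh-7 from 21.97 to 15.6 (-0.47, edgeR adjusted p = 0.00639). In Huh-7 SHMT2, the mitochondrial serine hydroxymethyltransferase, rose from 251 to 349 CPM (0.49), and the urea cycle gene ASL (-0.43) and the branched-chain dehydrogenase gene BCKDHB (-0.50) fell.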

How the data were processed

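RNA-seq was done on 12 libraries. Per the labels, the libraries were directional and made from total RNA after rRNA removal. Per the submitters' processing notes, the authors used cutadapt 4.6, STAR 2.7.11b and GRCh38. The deposited tables hold raw counts per Ensembl gene, 1 table per line. What counted the reads, with which annotation and whether by strand, is not given in the sources used here. Columns left without a sample numbered 0. No 2 replicates agreed within sampling noise (chi-square per degree of freedom 2.42 to 9.76).

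Each line was fitted alone in edgeR 4.0.16 (R 4.3.3) with filterByExpr (minimum count 10, total 15), TMM factors and a robust quasi-likelihood F-test. Basal levels and the difference between lines came from 1 fit of 12 libraries over genes in both tables. The SE is the absolute log2 value over the square root of F, an approximation. CPM use the factors of the 12-library fit, while fold changes within a line come from its own fit. An exact permutation test of 3 against 3 cannot go below p = 0.1, so none is given. Positions and exon lengths came from GENCODE v29, and symbols from a separate list of gene names. Genes were named by rule: the 10 members, NAA10, SLC3A2, up to 3 called genes per list and line by p (mean level 5 CPM or more), and the 3 genes most like SLC7A5, SLC7A1, SLC1A5 and SLC38A2 (log2 CPM, prior count 2). Some genes that the rule names are not reported here. Some genes so named in 1 line are also given for the other. SLC7A11, SLC38A3, SLC38A5, SLC43A2 and the eIF2 kinase genes stand outside that rule. The response genes beside the library deviations (ATF4, ASNS, PSAT1, TRIB3, CHAC1, SESN2) stand outside it as well. So do the cell type markers AFP, ALB, FOXA2, HNF4A, TTR, CD3E and MS4A1. The members and lists were chosen with earlier results of these data known. Alternatives were upper-quartile and RLE factors, limma-voom (3.58.1), DESeq2 1.42.0, other filters, a replicate block, other sets of libraries and each library left out. The steps were tested on simulated data.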

Additional observations from a re-analysis of the deposited data

Results flagged for a closer look

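In 5 transporter genes the response to siARD1 differed between the lines by the interaction term of the 12-library edgeR fit. The difference, Huh-7 minus Hep-3B on the log2 scale, was -0.92 for SLC36A1, which rose in 3 of 3 Hep-3B siARD1 libraries over every control and fell in 3 of 3 Huh-7 ones. It was 1.53 for SLC7A5, 0.82 for SLC7A1, 0.60 for SLC7A6 and 0.37 for SLC38A2, with all 3 Huh-7 siARD1 libraries over every control for each. Over the 19 alternatives the call of each of these 5 held, with ranges of -0.98 to -0.82, 1.43 to 1.70, 0.71 to 0.96, 0.52 to 0.72 and 0.28 to 0.47 in that order. NAA10 fell further in Huh-7, and the lines cannot be told apart from that.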

How the results depend on the processing

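Of the 670 values of single transporter genes recomputed under an alternative, 621 kept their direction and side of the threshold, 31 lost a call, 15 gained one and 3 changed sign. In Huh-7 only SLC1A4 lost a call. The Hep-3B count of 7 higher was 2 with upper-quartile factors, 3 with all 12 libraries in 1 fit, and 1 to 8 with 1 library left out (3, 1 and 2 without siARD1 library 1, 2 and 3, and 6, 6 and 8 without control 1, 2 and 3). Leaving out a library reduces the number of samples by construction, and the cause was not tested beyond that. SLC7A6 reversed to -0.044 in Hep-3B without siARD1 library 2 (up to 0.16 with another library left out), and the difference between lines for SLC43A1 to -0.071 without Hep-3B control 3 and to -0.0019 without Hep-3B siARD1 library 1 (up to 0.23), none of them called. With upper-quartile factors, 44.9% of the called Hep-3B genes and 39.7% of the called Huh-7 genes were higher (52.3 and 52.9% otherwise), and the median of all genes between the lines was 0.13 in place of 0.03. Replicate numbers are shared by the groups. In Hep-3B, deviations of same-numbered libraries correlated by 0.034 to 0.065 and those of other numbers by -0.055 to -0.010. Every Hep-3B library thus correlated best with its own number, but values this small do not settle whether the libraries were paired. In Huh-7 the values were -0.065 to 0.052 and -0.10 to 0.11, so pairing was not shown. A replicate block moved the count of all called genes from 5070 to 5597 in Hep-3B and from 6388 to 6328 in Huh-7. With the replicate block, 7 transporter genes were called higher in Hep-3B (SLC1A4 gained, SLC7A5 lost), 9 higher and 1 lower in Huh-7, 3 higher and 7 lower between lines, and 5 higher and 1 lower in the difference of responses. The lowest counts of a transporter gene in a Hep-3B library were 187 for SLC7A6 and 223 for SLC43A1, and whether depth or the spread of 3 libraries limits their calls was not tested.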
